A study of Mus musculus with 4 samples.

Results

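The proteins of the cytosolic ribosome were followed as a family of messages in MC38/gp100 cells. Members were taken by name: every protein-coding gene with a value in the deposited table whose symbol is Rpl or Rps followed by a number and at most 1 of the letters a, x or y, plus the stalk genes Rplp0, Rplp1 and Rplp2 and the laminin receptor gene Rpsa. This gave 76 of the 12578 genes with values, 46 of the large subunit and 30 of the small subunit. No measured value entered the choice. MC38 cells derive from a colon adenocarcinoma of C57BL/6 mice, and gp100, a melanocyte antigen, is the product of Pmel. The control group was kept in DMSO, the solvent, for 5 days. The inhibitor group was given GSK3368712 at 1 µM over the same 5 days, a compound that blocks type I protein arginine methyltransferases (PRMTs). Each group has 2 libraries of poly(A) RNA from the same engineered line, and these carry the letters A and B of their columns. Separate cultures are not stated in the labels for libraries of 1 group, and p-values then measure only a spread that may be technical. The deposited counts look like reads of the strand opposite to each gene, on values given before the levels, so the results are stated for reads counted at a gene and not for amounts of its message.

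A ribosome is built from ribosomal RNA and a single copy of most of its proteins, in a large subunit that joins amino acids and a small subunit that reads the message. Cells make these proteins from some of their most abundant messages, and growing tumour cells spend much of their synthesis on them. Many of the messages start with a terminal oligopyrimidine tract (TOP), a C followed by a run of C and T bases, through which mTOR and the RNA-binding protein Larp1 set their translation. Type I PRMTs add 2 methyl groups to 1 nitrogen of arginines in RNA-binding proteins, and the small subunit protein Rps2 is a known substrate of the type I enzyme PRMT3. The comparison asked whether reads at the genes of this family differed after 5 days with the inhibitor, and whether the subunits differed from each other.

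The start of a TOP message is its signature, so the starts of 8 members that recur in the results are printed here. Of the 76 members, 56 have an entry in the RefSeq promoter table (GRCm38.p6). A C at an annotated start followed by at least 4 C or T bases was found in 13 of these 56, or 23.2%, against 287 of 9666 genes with an entry and a value, or 2.97%. It was found in 7 of 34 large and 6 of 22 small subunit members. Each line gives 30 bases before and 20 bases from an annotated start on, 5′ to 3′ along the gene, and capitals mark the C at that start with the C and T run after it.
Rpl35, chr2:39005112-39005161, minus strand: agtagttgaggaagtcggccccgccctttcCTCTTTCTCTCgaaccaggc
Rpl15, chr14:18270967-18271016, minus strand: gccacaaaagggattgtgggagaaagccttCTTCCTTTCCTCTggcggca
Rpl14, chr9:120571487-120571536, plus strand: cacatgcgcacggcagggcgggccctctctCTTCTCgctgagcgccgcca
Rplp2, chr7:141447621-141447670, plus strand: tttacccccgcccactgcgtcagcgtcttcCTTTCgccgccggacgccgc
Rpl38, chr11:114668550-114668599, plus strand: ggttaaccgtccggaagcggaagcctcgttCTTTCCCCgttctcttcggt
Rps6, chr4:86857348-86857397, minus strand: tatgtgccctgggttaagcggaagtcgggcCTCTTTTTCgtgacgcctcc
Rps18, chr17:33955646-33955695, minus strand: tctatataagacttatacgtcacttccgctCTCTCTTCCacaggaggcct
Rps21, chr2:180257349-180257398, plus strand: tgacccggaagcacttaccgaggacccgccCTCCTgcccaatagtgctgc
The run was 11 bases in Rpl35, 13 in Rpl15, the longest among the 13, and 5 in Rplp2 and Rps21. Annotated starts can be off by some bases, so a member without the run at its annotated start can still be a TOP message. Among motifs searched on both strands from 250 bases before to 50 bases after the start, CCGGAAG, a site of ETS factors such as Gabpa, was in 41.1% of members and 20% of genes. AAGATGG, a site of Yy1, was in 16.1% of members and 8.55% of genes, and GGGCGG, a site of Sp1, in 60.7% of members and 68.2% of genes. CCGGAAG ends with the letters that AAGATGG starts with, so a site of each can share them, and a match in the sequence is not evidence that a factor was bound.

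The values below are normalised reads, the reads counted at a gene divided by the authors' size factor for the library, and the base mean is their mean over the 4 libraries. A pair of values for a group is library A, then library B. Reads per library were worked back from the deposited base means and came to 977647 to 1074596 at the 12571 genes where this gave a single solution. That is a low count per gene, with a median base mean of 22.6, and it is not the depth of sequencing. Of the markers that check the cell type, 1 of 4 melanocyte markers had a value, Pmel, at a base mean of 30.3. Whether the Pmel reads come from the engineered gene was not tested. A base mean of 10 was also reached by 1 of 8 epithelial markers (Krt8, 20.5) and 4 of 5 fibroblast markers (led by Col1a1, 621). The summed fibroblast markers were 965 and 986 normalised reads in DMSO and 1345 and 1180 in the inhibitor libraries. None of 3 endothelial markers reached 10, and the 1 leukocyte marker that did, Csf1r (473), shares exon bases with Hmgxb3 on the other strand.

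The strand of the counting limits every value in these data. The kit was stranded, and the sources used here do not give the strand setting of the counting. Of the 20 highest base means, 18 were at genes that share exon bases with a gene on the other strand, and of the 100 highest, 77 were, against 33.6% of all genes. Among them, Tlcd1 (26726) lies opposite Rpl23a, and Snx22 (6816) opposite Ppib, a chaperone of protein folding. In the mitochondrial genome, mt-Nd6, which alone among the 13 protein-coding genes lies on the minus strand, had the highest base mean at 2273. The cytochrome oxidase genes mt-Co1 and mt-Co3, among the most abundant messages of most cells, had 195 and 6.37. Counting on the strand opposite to each gene would give such values. The reads at a ribosomal protein gene would then be the part of its reads that carries the other strand, or antisense RNA, and not the bulk of its message, and reads in bases shared with a neighbour would be counted at the neighbour. Genes such as Eef1a1 (4935) and Hsp90ab1 (4008), with no exon on the other strand, still ranked high. Among the mitochondrial genes, mt-Nd5 on the plus strand came next after mt-Nd6, at 1638, and shares only 14 exon bases with it. How closely a difference in these reads follows a difference in the message was not tested.

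Reads at ribosomal protein genes were high within this table. The median member had a base mean of 528, 74 of the 76 reached 100, and 16 reached 1000. Per kilobase of mRNA, which allows for length but not for the strand of the counting, the median member stood at the 98.8th percentile of all genes. On that scale 75 of 76 members lay over the median gene. The family held 7 of the 100 highest base means. Rpl13 had the highest base mean, with 2250 and 2414 normalised reads in DMSO A and B, and 2223 and 2589 in inhibitor A and B. Rplp0, the stalk base that holds the acidic stalk proteins, followed in the large subunit with 1532, 1494, 1453 and 1723 in the same order. Inhibitor B was the highest library and inhibitor A the lowest for both genes, so the groups overlapped. In the small subunit, Rps15 had 981, 1048, 919 and 1053, and Rps18 had 929, 1049, 899 and 1067. The order of the libraries was the same in Rps15 and Rps18, with inhibitor A lowest and inhibitor B highest.

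**Figure D1:**
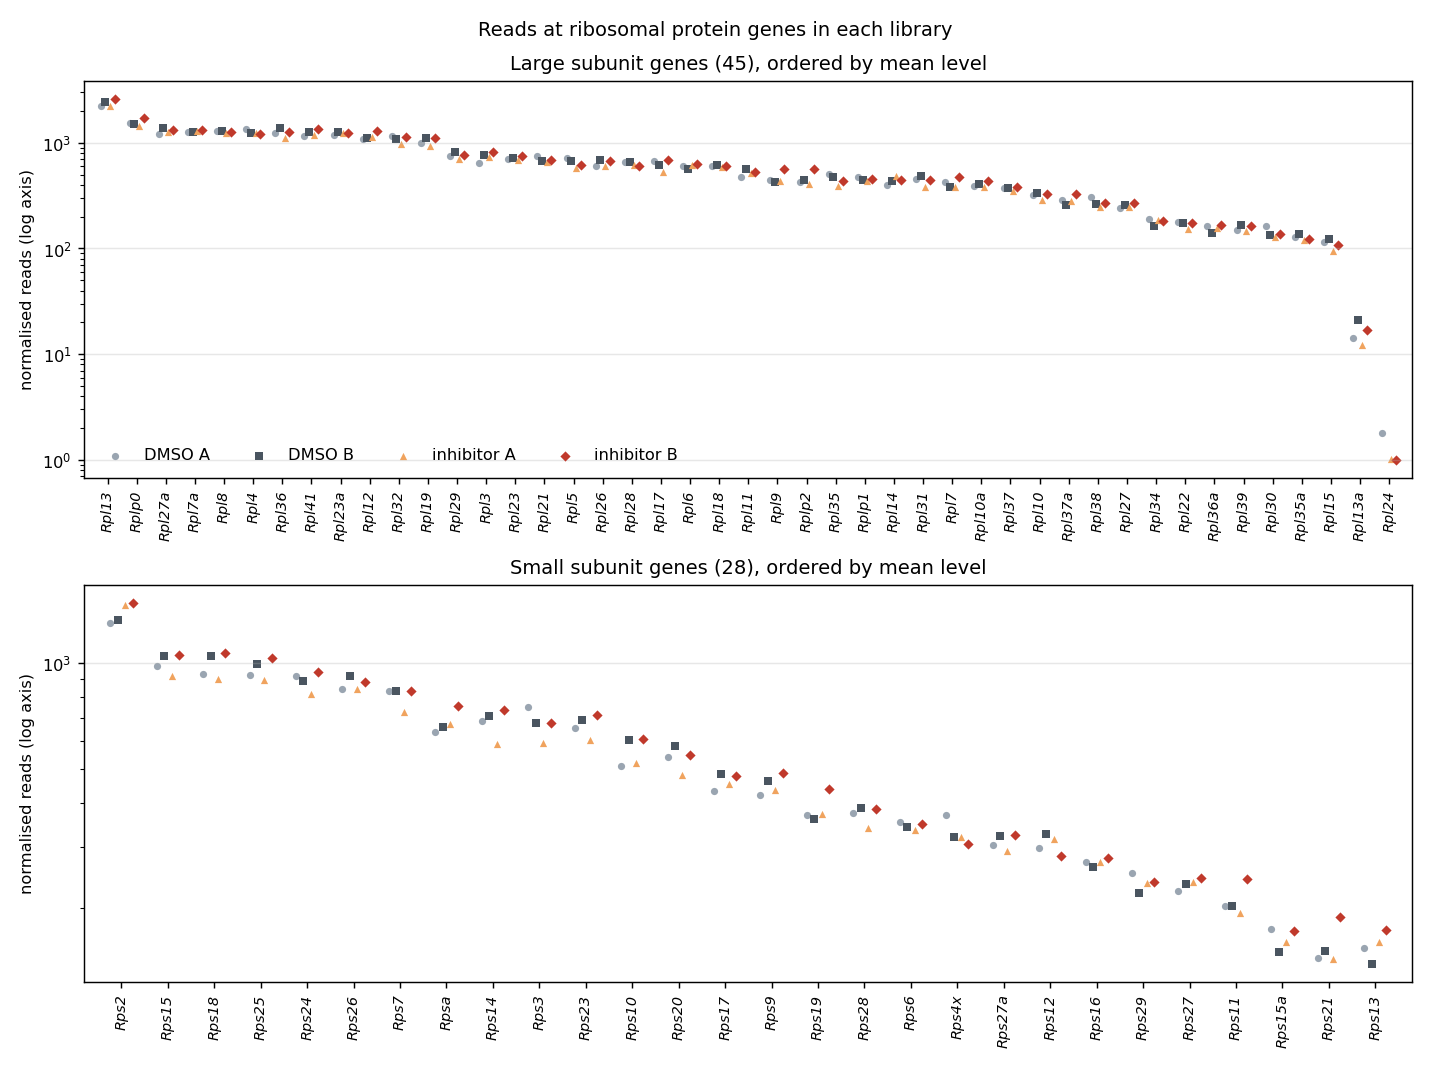
Normalised reads of ribosomal protein genes (log axis) in the 4 libraries, with 45 large subunit genes above and 28 small subunit genes below, ordered by base mean. All but Rpl13a and Rpl24 reach a base mean of 100, and in most genes the 4 libraries lie close together; Rpl24 has no point for DMSO B, where it had 0 reads.

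Read levels differed among the members. Per kilobase of mRNA, the members ran from 396 at the lower quartile through 620 at the median to 1058 at the upper quartile. Rpl36 (3241 per kilobase), Rpl13 (3037), Rpl41 (2274), Rpl23a (2192) and Rpl32 (2119) were highest in the large subunit, and Rps15 (2000.4) in the small subunit. The median was 626 over the 46 large and 613 over the 30 small subunit members. Rpl24 stood apart at a base mean of 0.956, with 1.79, 0, 1.03 and 1.00 normalised reads, and Rpl13a at 16.2. These were also the 2 members that shared more than 25% of their exon bases with other genes on the same strand, Rpl24 47.0% with Gm28037 and Rpl13a 35.4% with Gm45713, Mir5121 and Snord33 together. These neighbours are listed in the table without a value, and whether reads were lost to them was not tested. Rps15a (32.0 per kilobase) and Rps20 (145) were low partly by construction, since their best-supported annotated mRNAs are long, at 5130 and 3706 bases. Of the members, 59 have at least 1 pseudogene named after them, so reads that match several copies are uncertain; of 274 such pseudogenes listed in the table, 4 have a value.

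No ribosomal protein gene passed the test for a difference in reads between the groups. Of 75 members tested, all but Rpl24, which was under the abundance minimum of a base mean of 10, 0 were called (adjusted p under 0.05 by limma, fitted to the log2 values as deposited). The background was 2.14% of the 8562 genes tested, 1.3% higher and 0.841% lower with the inhibitor. The smallest adjusted p among members was 0.43 (limma, Rpl35), and 0 members had an unadjusted p under 0.05, against 12.2% of all genes. By DESeq2, in the authors' deposited results, 0 of the 74 members with an adjusted p passed (background 0.574%), and 0 of 76 had an unadjusted p under 0.05 (background 2.25%). The log2 fold changes of the members, on the scale of log2 normalised reads plus 1, ran from -0.25 to 0.19 with a median of -0.02, and 35 were positive and 40 negative (background 50.8% positive). The median over all genes tested was 0.01. In bulk RNA, fewer cells of a type and less RNA per cell cannot be told apart, and a change shared by all messages would not show after normalisation.

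The data bounded the size of any change in these reads. For 74 of the 74 members whose base mean reached 100, the 95% interval of the fold change lay within a change of 1.5-fold in either direction. The lowest bound among them was -0.57 and the highest 0.49 on the log2 scale. Such an interval was found for 1671 of 2034 genes of that abundance. Rpl13a, with few reads, had an interval from -1.01 to 0.53. The standard deviation of the fold changes was 0.11 among the 74 members and 0.24 among all genes whose base mean reached 100. These sets were not matched for abundance, with a median base mean of 549 in the members and 200 in all such genes. The median standard error was 0.13 for a member and 0.15 for such a gene. The spread of the members' fold changes was therefore no larger than the error of a single one. The intervals come from limma, in which the spread common to all genes outweighs each gene's own libraries. In the limma fit that gave the calls, that spread had 182 prior degrees of freedom against 2 residual. The prior of the fit that gave the intervals is not printed here.

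**Figure D2:**
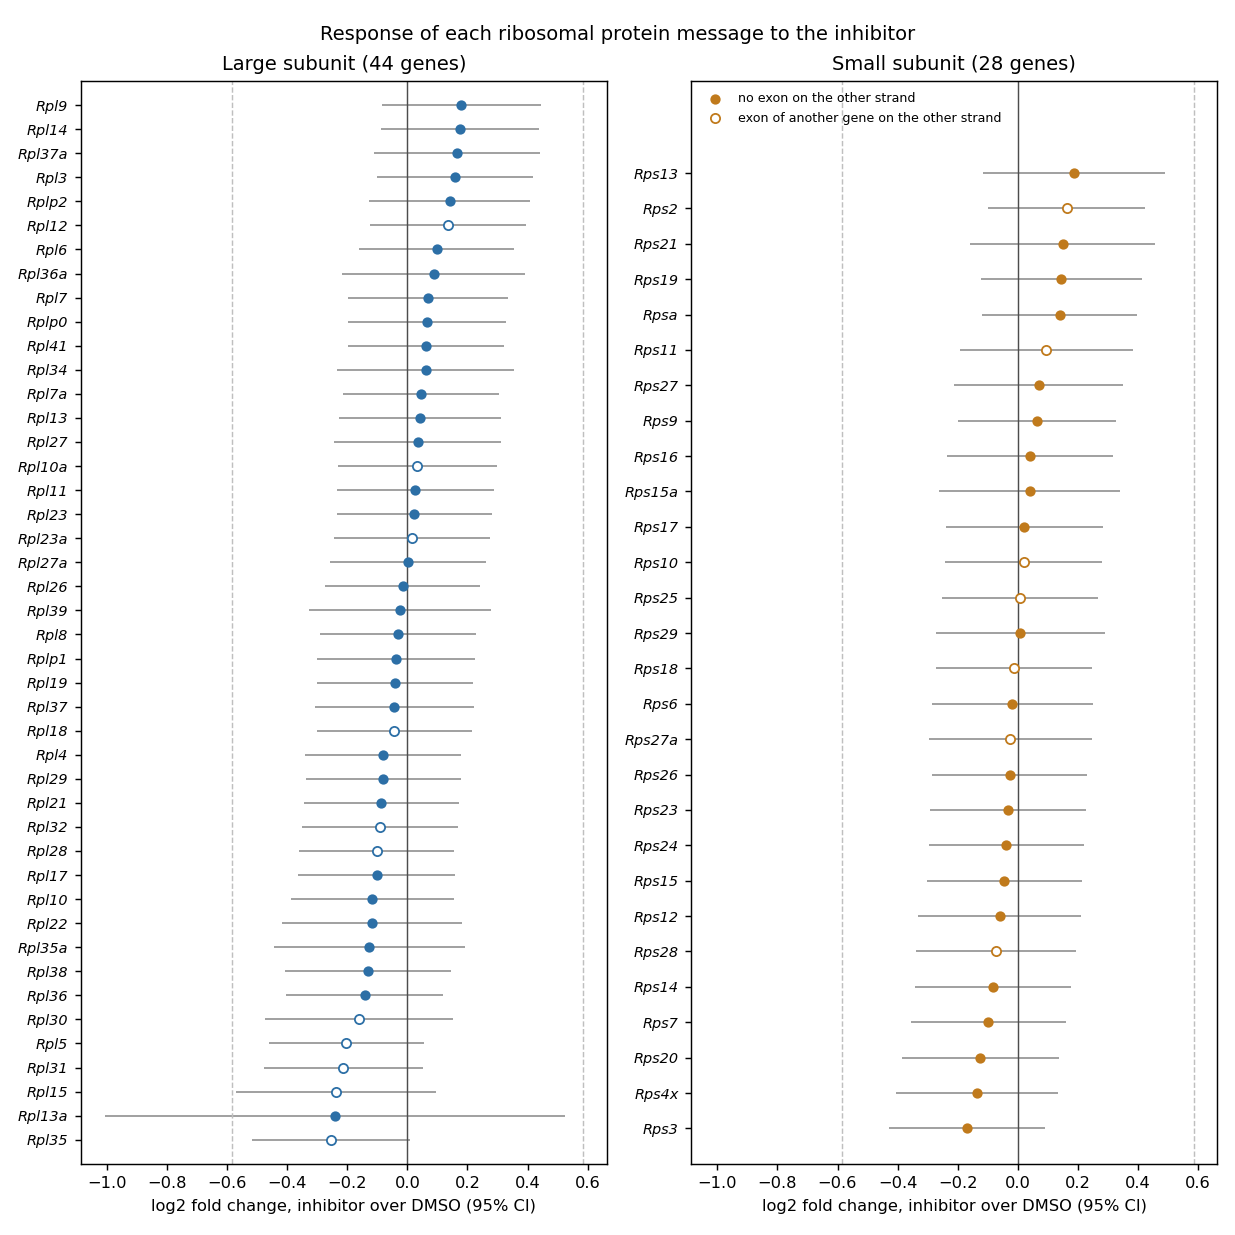
Log2 fold change of inhibitor over DMSO for 44 large and 28 small subunit members (points) with its 95% interval (bars); open points have an exon of another gene on the other strand, and dashed lines mark a change of 1.5-fold. All intervals shown except that of Rpl13a lie between the dashed lines, and 4 of the 5 lowest points in the large subunit are open.

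Among large subunit proteins around the exit tunnel, where the new chain leaves the ribosome, fold changes ranged from the lowest of the family at Rpl35 to values near 0 at Rpl23a and Rpl39. Rpl35, which sits at the tunnel exit, is encoded on chromosome 2 at 39001580 to 39005624 (mm10, minus strand). It had 509.6 and 479 normalised reads in DMSO and 391.99 and 438 in the inhibitor libraries. Both inhibitor libraries lay below both DMSO libraries, a log2 fold change of -0.25 ± 0.13 (SE, n = 2 per group) with a 95% interval from -0.52 to 0.01. Rpl31, another protein of the exit region, had 456 and 489.6 in DMSO and 378 and 439.7 with the inhibitor, at -0.21 ± 0.13 on the log2 scale (limma adjusted p = 0.56). Rpl23a, the docking site of factors that meet the new chain, had 1184 and 1259 in DMSO and 1230.5 and 1237 with the inhibitor. Its groups overlapped, and the log2 fold change was 0.01 ± 0.13. Rpl39, which lines the tunnel, had 149.8 and 165 in DMSO and 147 and 162 with the inhibitor, likewise overlapping, at -0.02 ± 0.15.

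Rpl5 and Rpl11 bind the 5S ribosomal RNA together and, outside the ribosome, hold back the ubiquitin ligase Mdm2. Rpl5, on chromosome 5 at 107900502 to 107909005 (plus strand), had 709.6 and 672 normalised reads in DMSO and 581 and 619 with the inhibitor. The inhibitor libraries lay below the DMSO libraries, at -0.20 ± 0.13 on the log2 scale (limma adjusted p = 0.58). Rpl11, its partner, had 469 and 559 in DMSO and 512 and 532 with the inhibitor, at 0.03 ± 0.13, and both inhibitor values fell between the DMSO values. The difference between the partners was not tested. Rpl15, which is needed to mature the large subunit, had 115 and 123 in DMSO and 94.7 and 107 with the inhibitor, at -0.24 ± 0.17 (limma adjusted p = 0.63). Rpl13a, known in human myeloid cells for leaving the ribosome to silence inflammatory messages, had 14.4 and 20.9 in DMSO and 12.3 and 17 with the inhibitor. These few reads overlapped, at -0.24 ± 0.39.

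The acidic stalk recruits the elongation factors. Its base Rplp0 had a log2 fold change of 0.06 ± 0.13, and Rplp1 of -0.04 ± 0.13 from 472 and 448 normalised reads in DMSO and 437 and 459 with the inhibitor. Rplp2 had 423 and 447 in DMSO and 405 and 568 with the inhibitor. Inhibitor B alone was high, and the log2 fold change was 0.14 ± 0.14. Rpl10, one of the last proteins to join the large subunit, had 323 and 338 in DMSO and 286 and 324 with the inhibitor, at -0.12 ± 0.14. Rpl38, required in mice for the translation of Hox messages, had 305 and 261 in DMSO and 249 and 266 with the inhibitor, at -0.13 ± 0.14. Neither gene separated the groups.

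The highest fold changes of the large subunit were at Rpl9, Rpl14, Rpl37a and Rpl3. Rpl9 had 443 and 424 normalised reads in DMSO and 431 and 559 with the inhibitor, at 0.18 ± 0.13, so its difference rested on inhibitor B. Rpl14 had 397 and 432 in DMSO and 489.7 and 447 with the inhibitor, at 0.18 ± 0.13, with both inhibitor libraries above DMSO. Rpl37a had 285 and 256 in DMSO and 279 and 329 with the inhibitor, at 0.17 ± 0.14. Rpl3, which reaches toward the centre where peptide bonds form, had 638 and 762 in DMSO and 733 and 825 with the inhibitor, at 0.16 ± 0.13. Limma adjusted p-values of these 4 genes lay between 0.65 and 0.72, and only Rpl14 among them separated the groups. Abundant members with smaller differences were Rpl41, the smallest ribosomal protein, at 0.06 ± 0.13 and Rpl27a at 0.00 ± 0.13.

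In the small subunit, Rps2, the PRMT3 substrate at the entry of the message channel, is encoded on chromosome 17 at 24718116 to 24721929 (plus strand). It had 1304 and 1333 normalised reads in DMSO and 1466 and 1485 with the inhibitor. The libraries of each group lay close together and the groups were separate, with means of 1318 ± 20.8 and 1476 ± 13.5 (SD, n = 2). The log2 fold change of 0.16 ± 0.13 had a 95% interval from -0.10 to 0.42, and the limma adjusted p was 0.71. Without a trend in the variance, limma gave Rps2 an unadjusted p of 0.017 and an adjusted p of 0.28. In that fit Rpl35, Rpl5 and Rpl31 were also under 0.05, at unadjusted p of 0.010, 0.014 and 0.038, each lower with the inhibitor. They were under 0.05 with quantile normalisation as well, where Rps2 was not. The share of all genes under 0.05 was not worked out for these alternatives, so nothing is read from these p-values. In the main limma fit, 0 members and 12.2% of all genes were under 0.05. By the authors' DESeq2, unadjusted p was 0.11 for Rpl35, 0.15 for Rpl5, 0.20 for Rpl31 and 0.16 for Rps2. Over all alternatives run, the smallest adjusted p of any member was 0.22 (limma, Rpl35). Rps3, the neighbour of Rps2 at the channel entry and known to be methylated on arginine by PRMT1, had 750.0 and 674 in DMSO and 592 and 677 with the inhibitor. It had the lowest fold change of the small subunit, -0.17 ± 0.13 (limma adjusted p = 0.69), and its groups overlapped.

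Rps13 had the highest fold change of the small subunit. It had 154 and 139 normalised reads in DMSO and 160.5 and 173 with the inhibitor, at 0.19 ± 0.15. Both inhibitor libraries lay above both DMSO libraries, and the limma adjusted p was 0.71. Rps21 had 144 and 151 in DMSO and 143 and 188 with the inhibitor, at 0.15 ± 0.16, where inhibitor B alone was high. The gene most often mutated in Diamond-Blackfan anaemia, Rps19, had 369.6 and 359 in DMSO and 370.4 and 439 with the inhibitor, at 0.15 ± 0.13. Rpsa, also studied as a laminin receptor, had 636 and 659 in DMSO and 672 and 757 with the inhibitor, at 0.14 ± 0.13. In Rps19 the separation rested on less than 1 normalised read between DMSO A and inhibitor A.

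Rps6, whose phosphorylation by S6 kinase is a standard readout of mTOR activity, had 353 and 340.3 normalised reads in DMSO and 335 and 349 with the inhibitor. Its group means, 346 ± 8.69 and 342 ± 9.28, differed by less than the spread of the libraries, at -0.02 ± 0.14, with a 95% interval from -0.29 to 0.25. Rps14, lost in the human 5q deletion syndrome, had 685 and 708 in DMSO and 587 and 736 with the inhibitor, at -0.08 ± 0.13. Inhibitor A was its lowest library and inhibitor B its highest. The remaining low members of the small subunit were Rps4x, the copy on the X chromosome, at -0.14 ± 0.14, Rps20 at -0.12 ± 0.13 and Rps7 at -0.10 ± 0.13. None of these 3 separated the groups.

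Large and small subunit genes were compared by their medians and sums. The median log2 fold change was -0.02 over 45 large subunit members (20 positive, 25 negative) and 0.00 over 30 small subunit members (15 positive, 15 negative). Without inhibitor A the medians were 0.045 and 0.074, and without inhibitor B they were -0.080 and -0.053. The summed normalised reads of the large subunit were 30358 and 30979 in DMSO and 29031 and 32038 with the inhibitor, a ratio of group means of 0.996. Those of the small subunit were 17037, 17589, 16508 and 18267 in the same order, a ratio of 1.004. With 2 libraries per group, an exact two-sided permutation test cannot go below p = 0.333, so these sums were not tested. The ratio of large to small subunit reads was 1.78 and 1.76 in DMSO A and B, and 1.76 and 1.75 in inhibitor A and B. It varied by less than the sums themselves, which moved together in both subunits.

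The groups did not overlap in 19 of the 75 members, against a background of 41.2% of all genes tested (20.7% higher, 20.5% lower) and 45.4% of genes whose base mean reached 100. Higher in both inhibitor libraries were 10 members, 4 of the 45 tested in the large subunit (Rpl6, Rpl7a, Rpl12, Rpl14) and 6 of the 30 in the small subunit, among them Rps2, Rps13 and Rpsa. Lower in both were 9 members, all among the 45 of the large subunit: Rpl4, Rpl5, Rpl8, Rpl15, Rpl22, Rpl28, Rpl31, Rpl35 and Rpl35a. No small subunit member was lower in both. The difference between the subunits in these counts was seen in the data and was not tested. Of the 9 lower members, 5 have an exon of another gene on the other strand (Rpl5, Rpl15, Rpl28, Rpl31 and Rpl35), as do 23.7% of all members and 33.6% of all genes. These 9 were picked by the same values, and nothing is read from that count.

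The family moved more between the 2 inhibitor libraries than between the groups. Of the 75 members, 69 were higher in inhibitor B than in inhibitor A, 41 of 45 large and 28 of 30 small subunit genes, with a median log2 difference of 0.16. Over all 8555 genes, 49.1% were higher in inhibitor B, with a median difference of -0.01, and over genes whose base mean reached 100 the share was 50%. Between the DMSO libraries, 43 of 75 members (57.3%) were higher in DMSO B, beside 51.0% of all genes and 59.6% of genes of at least 100. The median difference was 0.05 in the members, 0.01 in all genes and 0.06 in genes of at least 100. Inhibitor A was the lowest of the 4 libraries for 43 members and inhibitor B the highest for 35. The shares of all genes lowest or highest in these libraries were not worked out, so nothing is read from these counts. The family's share of the recovered reads was 4.92% in DMSO A (95% Wilson interval 4.88 to 4.96), 4.76% in DMSO B (4.72 to 4.80), 4.48% in inhibitor A (4.44 to 4.52) and 4.94% in inhibitor B (4.90 to 4.98). These intervals cover counting error only. The DMSO libraries lay between the inhibitor libraries, and the intervals of DMSO A and inhibitor B overlapped.

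**Figure D3:**
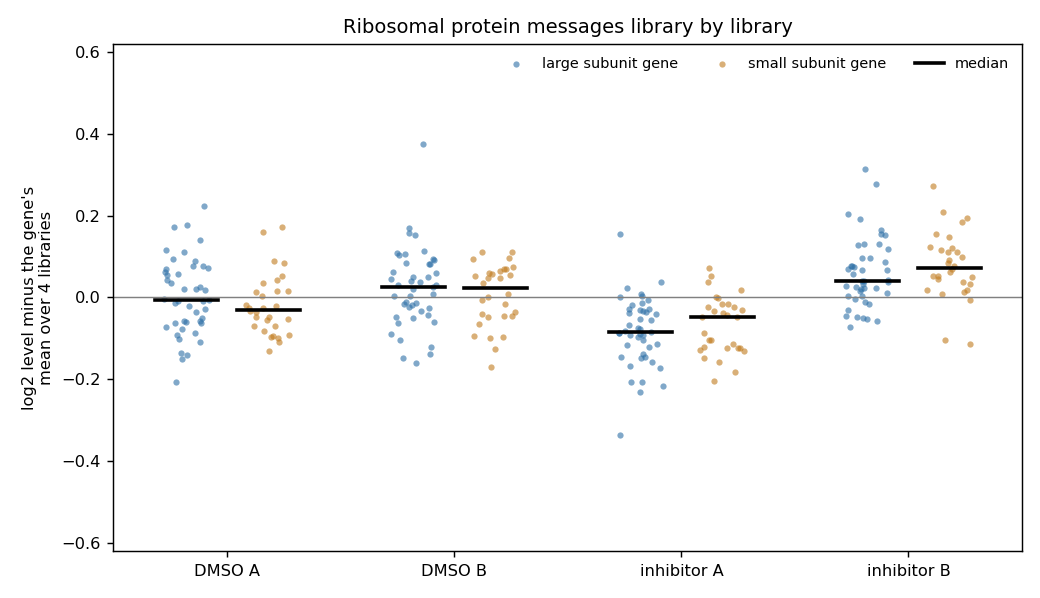
Log2 level of each tested member in each library minus its mean over the 4 libraries, large subunit genes in blue and small subunit genes in orange, with black bars at the medians. In both subunits the median is lowest in inhibitor A (-0.09 large, -0.05 small) and highest in inhibitor B (0.04 large, 0.07 small).

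The difference between the inhibitor libraries was set beside that of other genes of like length. The members' messages are short, with a median of 767.5 bases against 2793 for all genes, and 57 of 76 are under 1000 bases. Among 116 other genes with a base mean from 100 up and an mRNA under 1000 bases, 65.5% were higher in inhibitor B and the median difference was 0.03. Among 611 other genes with an mRNA of 4000 bases or more, 34.9% were higher in inhibitor B and the median was -0.06. In the members under 1000 bases and with that base mean, 53 of 56 were higher in inhibitor B, with a median of 0.16. Length moved with the library difference in the DMSO pair too, where other genes under 1000 bases had a median of 0.16 and the members of that length 0.07. These are descriptions of 2 libraries each, without a test, and the part of length in the difference was not tested. Elongation factors and other TOP messages, which are translated with the ribosomal proteins, were higher in inhibitor B in 10 of 17 genes, with a median of 0.02.

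Genes on the other strand shared exon bases with 18 members, or 23.7%, against 33.6% of all genes. Of the 5 lowest fold changes in the family, 4 belonged to such members: Rpl35 (Arpc5l and Wdr38), Rpl15 (Nkiras1), Rpl31 (Tbc1d8) and Rpl5 (Fam69a). These were singled out after their values were seen. The neighbour of Rpl5, Fam69a, whose product resides in the endoplasmic reticulum, shares 953 exon bases with it. It had 482 and 603 normalised reads in DMSO and 1933 and 1909.9 with the inhibitor, at 1.83 ± 0.13 on the log2 scale (limma adjusted p = 2.2e-26). The neighbour of Rpl31, Tbc1d8, shares 420 bases and had 151 and 201 in DMSO and 381 and 409.6 with the inhibitor, at 1.18 ± 0.14 (limma adjusted p = 2.5e-11). Reads at both neighbours rose, in all 11 limma alternatives and in the authors' deposited table, and Rpl5 and Rpl31 did not pass the test. Under counting on the opposite strand, reads at Fam69a and Tbc1d8 in the shared bases would be reads of the Rpl5 and Rpl31 messages. Whether the added reads at these neighbours lay in the shared bases was not tested. The median log2 fold change was -0.03 over the 18 members with an exon on the other strand and -0.02 over the 57 tested without one.

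**Figure D4:**
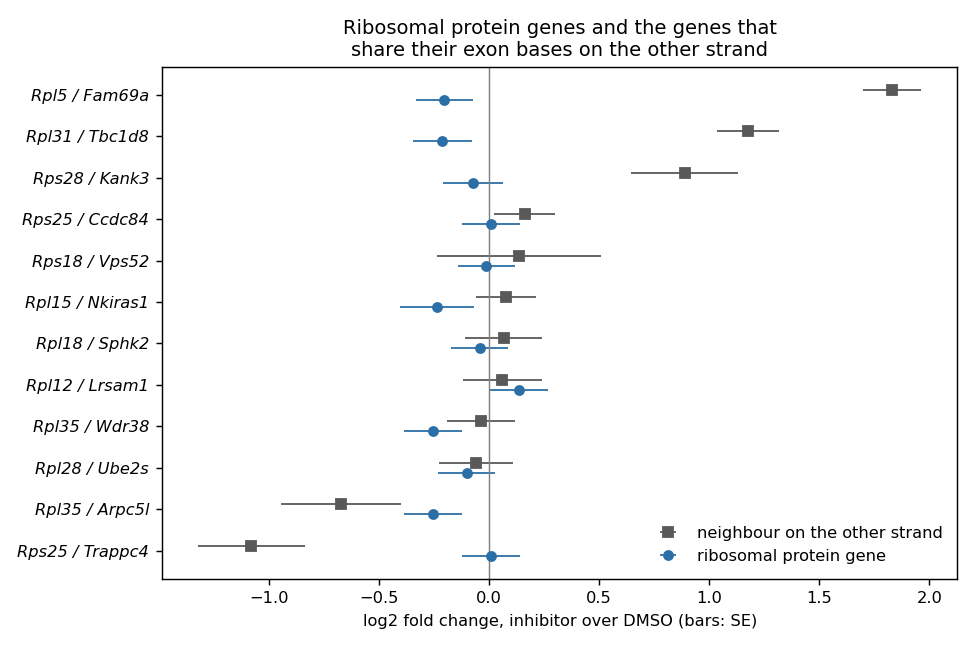
Log2 fold change with its standard error for ribosomal protein genes (blue circles) and the genes that share their exon bases on the other strand (grey squares). The 12 pairs are those where both genes have a fold change on recovered reads. Tlcd1 and Cand2 are not shown, as their reads had no single solution. The neighbours run from -1.08 (Trappc4) to 1.83 (Fam69a), while every ribosomal protein gene lies between -0.25 and 0.13.

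Some neighbours were counted far above the ribosomal protein gene. Of 15 pairs with a value for the neighbour, 4 had the higher base mean at the neighbour. Tlcd1, a membrane lipid protein, had a base mean of 26726, or 21.8 times that of Rpl23a, and shares 506 bases with it, where the Rpl23a mRNA is 560 bases long. Nkiras1, an inhibitor of NF-kappaB signalling, had 18.0 times the base mean of Rpl15, and Cand2 had 2.70 times that of Rpl32. In the authors' deposited table, the log2 fold changes of these 3 neighbours were 0.02 ± 0.12 for Tlcd1, 0.07 ± 0.13 for Nkiras1 and 0.04 ± 0.23 for Cand2 (SE), each with an adjusted p of 1.00 (DESeq2). None of these 3 neighbours was called by limma either (adjusted p from 0.91 to 0.98). If reads were counted on the opposite strand, those at Tlcd1 in the shared bases would be reads of the Rpl23a message, and the levels printed for Rpl23a and Rpl15 would leave such reads out. Other neighbours called by limma were Kank3, opposite Rps28, at 0.89 ± 0.24 (limma adjusted p = 0.022) and Trappc4, opposite Rps25, at -1.08 ± 0.24 (limma adjusted p = 0.0022). The call was lost in 6 of 10 alternatives for Kank3 and in 4 of 10 for Trappc4, among them the fit without inhibitor A, and the authors' deposited table called neither (DESeq2, adjusted p of 0.73 and 0.40). Rps28 and Rps25 themselves had fold changes of -0.07 ± 0.13 and 0.01 ± 0.13.

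Many ribosomal protein genes carry small nucleolar RNAs in their introns, which guide the modification of ribosomal RNA. In GENCODE vM21, 29 of the 76 members, or 38.2%, host 56 such RNAs, against 1.67% of all genes with a value. The median log2 fold change was -0.02 in the 29 hosts and -0.02 in the 46 tested members without one, and 0 were called in either class. The small nucleolar RNAs themselves have no values here, since all 12578 genes with values have the type protein-coding in the deposited table, which gives that type also to the 4 genes named as pseudogenes.

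Of 3 lists of genes around ribosome production, 2 held 1 called gene each and the other held 0, beside 2.14% of all genes tested (1.3% higher). With 9 to 20 genes tested in a list, nothing is read from these counts. Of 17 tested elongation factors and other TOP messages, 1 was called higher and 0 lower, with a median log2 fold change of 0.01. The called gene was Hnrnpa1, a splicing regulator and a PRMT1 substrate, with 237 and 254 normalised reads in DMSO and 365 and 378 with the inhibitor, at 0.60 ± 0.14 (limma adjusted p = 0.0027). It was not called in the authors' deposited table (DESeq2, adjusted p = 0.097), nor by limma without a minimum or with either inhibitor library left out, and its adjusted p over 11 alternatives ran from 0.00076 to 0.18. The most abundant of the list, the elongation factor gene Eef1a1, had 4980.0 and 4813 in DMSO and 4699.7 and 5248 with the inhibitor, at 0.02 ± 0.15. Of 20 tested regulators of ribosomal protein synthesis, among them mTOR, Myc and the factors named with the motifs above, 0 were called. By limma, 1 of them, Znhit6, had an unadjusted p under 0.05, and by DESeq2, in the authors' deposited results, 0 of 21 had one and 0 were called. Larp1, the most abundant regulator, had 911 and 849.7 in DMSO and 911 and 767 with the inhibitor, at -0.07 ± 0.13. Of 9 tested chaperones of ribosomal proteins, 1 was called higher and 0 lower. This was Pdcd2, known in human cells as a dedicated chaperone of the Rps2 protein, with 33.2 and 30.3 in DMSO and 65.8 and 73.1 with the inhibitor, at 1.11 ± 0.23 (limma adjusted p = 0.00065). The authors' deposited table gives it an adjusted p of 0.26 (DESeq2), and over 11 limma alternatives it ran from 0.00075 to 0.075, with the call lost only without an abundance minimum. Pdcd2 shares exon bases with Tbp on the other strand. The most abundant chaperone, nucleolin (Ncl), had 1398 and 1321 in DMSO and 1315 and 1269 with the inhibitor, at -0.07 ± 0.13.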

How the data were processed

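Poly(A) RNA of 4 libraries, 2 per group, was compared. RNA was isolated on columns and made into stranded libraries, per the labels' protocols. The build mm10 and the names HISAT2 2.1.0, StringTie 1.3.0, SAMtools 1.2 and DESeq2 appear, with no roles, in the submitters' processing notes. How reads were counted, on which strand and with which annotation, the sources used here do not say. Per the file headers, the authors deposited log2 values per library (named logCPM), a base mean, which is a signal, and DESeq2's log2 fold change, standard error, Wald score, p-value and adjusted p-value. The deposited log2 values average to the base mean (median log2 difference -0.00313) and shrink differences between libraries. The columns carry a letter and no replicate number.

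Whole reads were recovered from the base means, which are printed to 15 significant digits, by a search for reads that give that value under the authors' size factors (1.11 and 0.958 for DMSO A and B, 0.972 and 0.999 for inhibitor A and B). A single solution was found for 12571 of 12578 genes, and the search was checked on simulated reads. Calls come from limma 3.58.1 (R 4.3.3) with a variance trend on the deposited log2 values of 8562 genes whose base mean was 10 or more, group as the only term, Benjamini-Hochberg over all of them, two-sided. Fold changes, standard errors and intervals were fitted with limma to log2 of the recovered, normalised reads plus 1 (8555 genes). This scale understates changes of genes with few reads. Rows without values were left out.

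Coordinates, exon overlaps, hosts and mRNA lengths come from GENCODE vM21 (12570 genes matched by ID). The mRNA length is that of the shortest of the best-supported principal transcripts. Members, lists, named genes (called members, the 4 highest and 4 lowest fold changes and 4 highest base means per subunit, members fixed for their role, and of each list the called and the most abundant gene) and tests were chosen with earlier results of these data known. Genes named for their level per kilobase or for separate groups were picked by these values. Protein features were not analysed here, and 3 members are named in neither the text nor the plots and are not reported singly.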

Additional observations from a re-analysis of the deposited data

How the results depend on the processing

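No paired analysis was possible because the columns of the deposited table carry a letter and not the replicate number of the labels. The count of 0 ribosomal protein genes called was the same in all 12 alternatives run: other abundance minimums, no variance trend, quantile normalisation, limma and limma-voom on recovered reads, each library left out, and the authors' DESeq2. With all 4 libraries, the unadjusted p was under 0.05 for 0 to 5 members, the most with quantile normalisation, a count examined after seeing the data. The share of all genes at that threshold was 12.2% in the main fit and in limma on recovered reads, and 2.25% by the authors' DESeq2. In each of these 0 members were under it. That share was not worked out for the other alternatives, so nothing is read from their counts. The count of called genes overall was 183; it was 16 with no abundance minimum, 77 without a variance trend, 26 by the authors' DESeq2 and 63 to 233 with a library left out (63 without inhibitor A, 73 without inhibitor B). With a library left out, the median log2 fold change ran from -0.080 to 0.045 in the large and from -0.053 to 0.074 in the small subunit. The difference of these medians, large minus small, was -0.02; it was -0.0099 on the deposited log2 values, 0.012 without members that have an exon on the other strand, and -0.033 to 0.014 with a library left out. Ratios of summed reads moved by less than the spread of the libraries in every alternative run. With a library left out, a move below that spread follows from how the spread was computed, so nothing is read from those runs. There the ratios ran from 0.947 to 1.045 in the large and from 0.953 to 1.055 in the small subunit. The low number of reads and 2 libraries per group limit all of these values, and leaving out a library assumes that the lone sample varies like the others.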

Other observations

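Proteins of the ribosome or close relatives of them that the naming rule leaves out were looked at apart. Of 14 listed, 8 have a value, 6 were tested and 0 were called by limma, with 0 at an unadjusted p under 0.05 by limma or in the authors' deposited DESeq2 table. Over all genes, 2.14% were called by limma, and 12.2% by limma and 2.25% by DESeq2 had an unadjusted p under 0.05. With 6 genes tested, nothing is read from these counts. Rack1, the scaffold on the small subunit that recruits signalling proteins, had 1078 and 1053 normalised reads in DMSO and 939 and 1094 with the inhibitor, at a log2 fold change of -0.07 ± 0.13. Fau, a ubiquitin-like fusion that yields a small subunit protein, had 434 and 486 in DMSO and 393 and 479 with the inhibitor, at -0.08 ± 0.13. In Rack1 and Fau, as in most members, inhibitor A was the lowest library. Rpl7l1 and Rpl22l1, paralogs of large subunit proteins, had fold changes of 0.31 ± 0.19 and 0.30 ± 0.47.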
